A study of Homo sapiens with 15 samples.

Results

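The genes described here are 10 secreted chemokines and inflammatory cytokines, CXCL1, CXCL2, CXCL3, CXCL8, CCL2, IL6, IL11, IL24, IL1B and LIF, picked by symbol from RNA sequencing of A375, an established human melanoma cell line. All 10 symbols were found, among 20332 genes in the deposited table on serum and 20323 genes in each deposited table on overexpression. Polyadenylated RNA was read in 15 libraries, 3 in each of 5 groups. One set held cells starved in 0.1% fetal bovine serum (FBS) and cells in the usual 10% FBS, both for 48 hours. The other set held cells made to overexpress caMKL1, a constitutively active form of MKL1, cells overexpressing MKL1 and cells carrying a control vector, all for 48 hours. The sources used here name neither the vector and its promoter nor the change that makes caMKL1 active, and all 15 libraries come from 1 cell line. No serum level was assigned to the overexpression libraries from their labels. The labels number the libraries of a group 1 to 3 but do not say whether these were separate cultures, so p-values measure the spread between these libraries, which may be technical.

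Chemokines are small secreted proteins that draw leukocytes along a gradient, and cytokines of the IL-6, IL-10 and IL-1 families signal through cell surface receptors to JAK-STAT or NF-kappaB pathways. Melanoma cells are known to secrete several of them, CXCL8 and CXCL1 among them, and their genes are classical targets of NF-kappaB and AP-1. MKL1, listed in the files as MRTFA, partners the transcription factor SRF. Monomeric actin keeps it in the cytoplasm, and it enters the nucleus when serum drives actin to polymerize.

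The overexpressed gene matched the labels. MRTFA was at 481, 463 and 465 CPM (counts scaled to library size by TMM factors) in caMKL1 libraries, 732, 771 and 709 CPM in MKL1 libraries and 26.2, 25.7 and 25.7 CPM in control vector libraries. SRF was at 263 to 272 CPM with caMKL1, 69.5 to 74.3 CPM with MKL1 and 62.0 to 69.5 CPM with the control vector. Library totals ran from 13937251 to 16673427 counts in 0.1% FBS, 15801033 to 17178725 in 10% FBS, 16557803 to 20895879 with caMKL1, 20387727 to 23501312 with MKL1 and 20784978 to 23957043 with the control vector. The summed level of 9 melanocyte lineage markers lay between 960 and 1966 CPM in all 15 libraries. Of the 9, 5 or 6 averaged at least 1 CPM in a group. SOX10 or CSPG4 was the highest, and TYR had no read in 10% FBS. Of 12 leukocyte markers, 3 or 4 had no read in any library of a group, and CD68, a lysosomal protein, led the sum in every group. In bulk RNA, fewer cells of a type and less RNA per cell cannot be told apart.

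**Figure D1:**
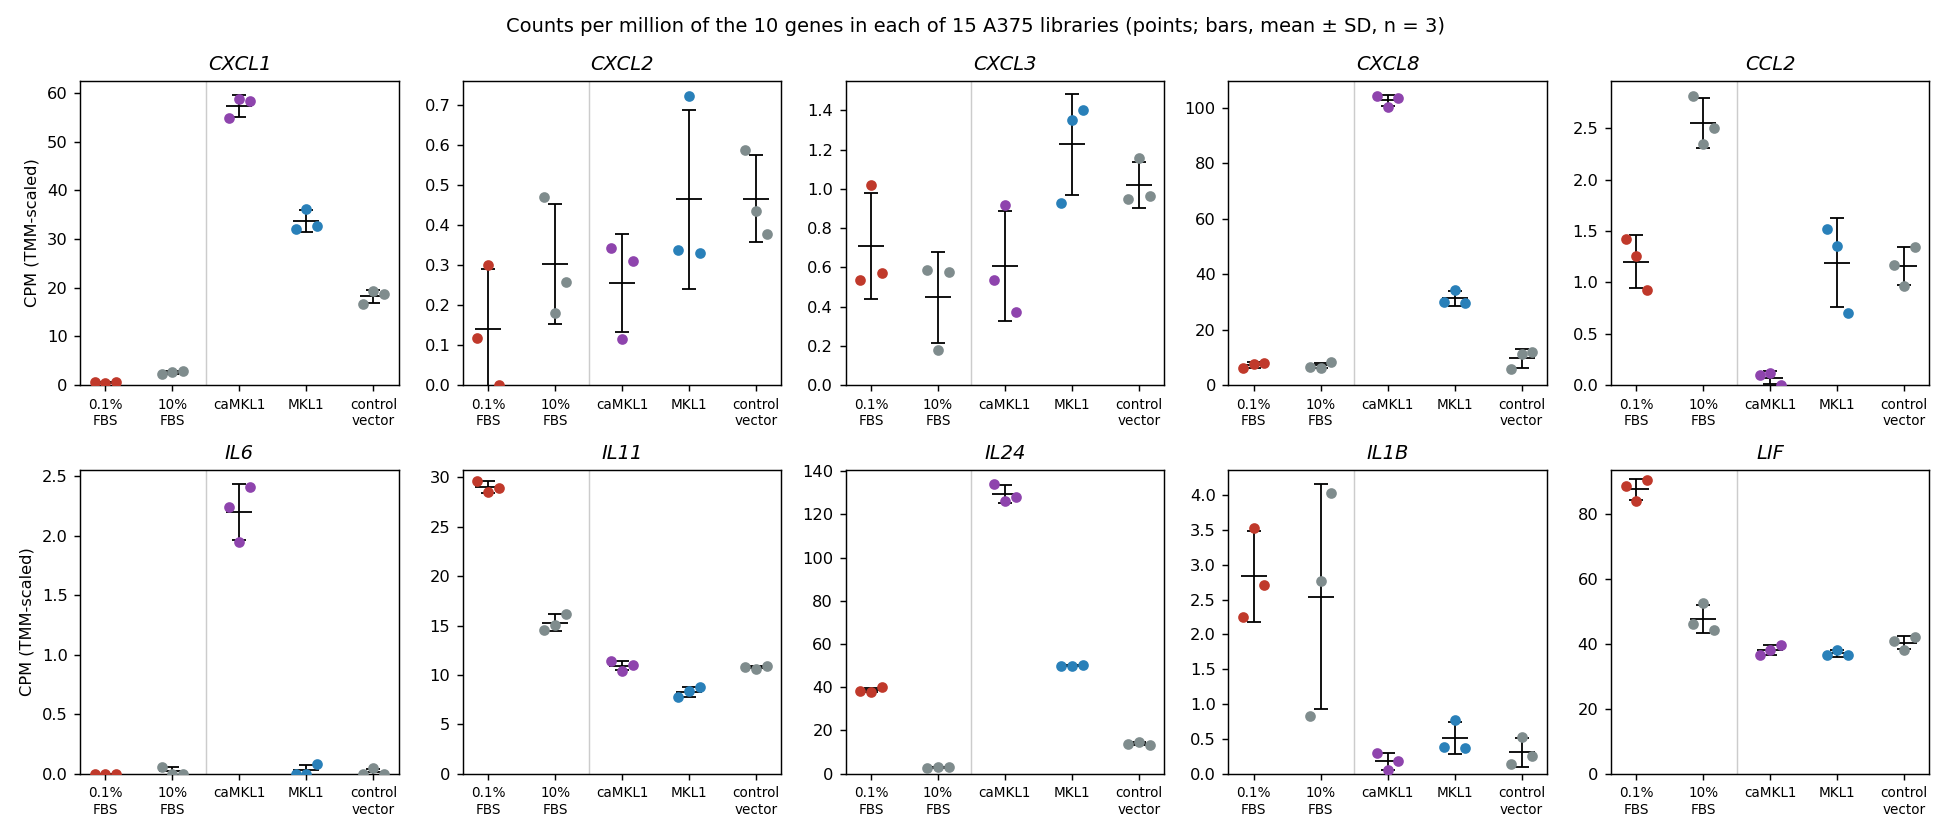
CPM (vertical axis, own scale per panel) of the 10 genes in each library of 0.1% FBS, 10% FBS, caMKL1, MKL1 and control vector cells, with the mean and SD of 3 libraries as bars. IL24 stands highest in caMKL1 libraries at 126 to 134 CPM, CXCL1 is under 1 CPM in 0.1% FBS, and IL6 is above 0.1 CPM in caMKL1 libraries alone.

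Starvation moved these genes in opposite directions. IL24, IL11 and LIF were higher in 0.1% FBS than in 10% FBS, and the chemokines CXCL1 and CCL2 were lower. Of the 7 genes that passed the filter on low counts, 3 rose and 2 fell at an adjusted p under 0.05 (edgeR, quasi-likelihood test, Benjamini-Hochberg over all tested genes), while 31.2% of all 13307 tested genes rose and 31.4% fell. The share of the 7 that changed, 71.4%, is near the 62.6% of all tested genes. The groups did not overlap for those 5 genes, nor for 67.1% of all tested genes. CXCL1 passed the filter only through the 10% FBS libraries, where it is high, so these counts describe the 7 genes and support nothing more. The median log2 fold change was 0.17 over the 7 genes and -0.0042 over all tested genes. CXCL2, CXCL3 and IL6 were too low to be tested.

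With caMKL1, IL6, CXCL8, IL24 and CXCL1 were higher than with the control vector and CCL2 was lower. In edgeR's quasi-likelihood test 4 of the 8 tested genes rose and 1 fell, or 62.5%, against 30.5% rising and 33.1% falling, together 63.6%, of 13558 tested genes. The share that changed is close to that of the whole table. The median log2 fold change was 0.84 over the 8 genes and -0.020 over all tested genes. IL6 passed the filter only through the caMKL1 libraries and CCL2 only through the control vector libraries, so their differences were built into their being tested. CXCL3, which was not called, also passed only through the control vector libraries. The 2 groups did not overlap for 7 of the 10 genes, CXCL2 and CXCL3 being the ones beyond the 5 called. They did not overlap for 67.8% of all tested genes, a share over tested genes only, while CXCL2 was not tested. CXCL2 and IL1B were too low to be tested.

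With MKL1, IL24, CXCL8 and CXCL1 were higher than with the control vector, and IL11 was lower. In edgeR's quasi-likelihood test 3 of the 7 tested genes rose and 1 fell, 57.1% in all, while 15.8% of 13409 tested genes rose and 15.4% fell, 31.2% in all. The median log2 fold change was 0.28 over the 7 genes and 0.011 over all tested genes. The groups did not overlap for the 4 genes called, nor for 46.4% of all tested genes. CXCL2, IL6 and IL1B were too low to be tested.

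Set against each other in a fit of the 9 overexpression libraries, the active form gave more IL6, CXCL8, IL24, CXCL1 and IL11 than MKL1 and less CCL2 and CXCL3. That is 5 genes higher and 2 lower of 8 tested, 87.5%, by edgeR's quasi-likelihood test, against 25.2% higher and 27% lower, 52.2% in all, of 13720 tested genes. IL6 passed the filter only through the caMKL1 libraries, and CCL2 and CXCL3 only through MKL1 and control vector libraries. These genes were tested because of the groups where they are high, so the count is a description. The median log2 fold change was 0.59 over the 8 genes and -0.017 over all tested genes. The groups did not overlap for 8 of the 10 genes, IL1B being the one beyond the 7 called. They did not overlap for 61.4% of all tested genes, a share over tested genes only, while IL1B was not tested. CXCL2 and IL1B were too low to be tested. The comparisons of caMKL1 with control, MKL1 with control and caMKL1 with MKL1 share libraries, so their values are set side by side and are not independent of one another. With library totals in place of TMM factors, the split over all genes of caMKL1 against MKL1 became 2750 higher and 4942 lower, against 3463 higher and 3701 lower, and the counts over the 10 genes did not move.

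**Figure D2:**
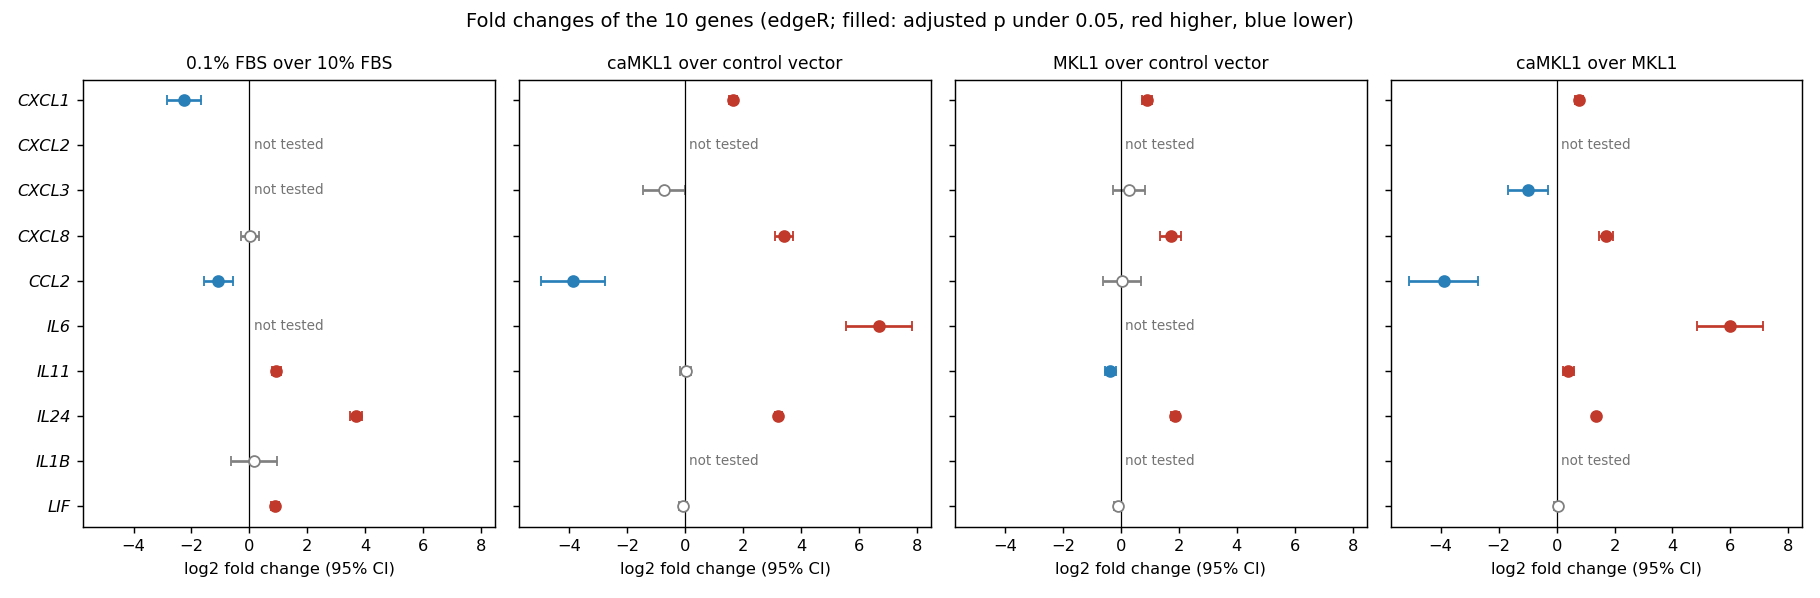
Log2 fold changes (horizontal axis) with 95% confidence intervals for the 10 genes (rows) in 4 comparisons (panels), from edgeR; filled points passed an adjusted p of 0.05, red higher and blue lower, and genes under the filter on low counts are marked as not tested. IL24 and CXCL1 lie right of 0 in the 3 overexpression panels, while in 0.1% over 10% FBS IL24 is at 3.67 and CXCL1 at -2.25.

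CXCL1, CXCL2, CXCL3 and CXCL8 are neutrophil-attracting chemokines that act on CXCR1 and CXCR2, and they lie in 1 cluster on chromosome 4 (GENCODE 29, GRCh38). CXCL8 is at chr4:73740506-73743716 and CXCL1 at chr4:73869393-73871242 on the plus strand, and CXCL3 is at chr4:74036589-74038807 and CXCL2 at chr4:74097035-74099293 on the minus strand. The stretches of 150 bases before the RefSeq start (GRCh38.p14, each on its gene's strand) are shown for these 4 genes and IL6, since they share a motif, and for IL24, since it changed in every comparison and holds neither motif. GENCODE 29 starts CXCL2, CXCL3, CXCL8 and IL6 further upstream than RefSeq does. Capitals mark matches to the kappaB motif GGANTTTCC and the AP-1 motif TGANTCA, searched on both strands, which do not overlap each other here.
CXCL1: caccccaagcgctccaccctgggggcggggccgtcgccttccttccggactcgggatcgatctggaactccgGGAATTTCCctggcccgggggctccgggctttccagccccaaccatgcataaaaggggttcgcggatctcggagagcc
CXCL2: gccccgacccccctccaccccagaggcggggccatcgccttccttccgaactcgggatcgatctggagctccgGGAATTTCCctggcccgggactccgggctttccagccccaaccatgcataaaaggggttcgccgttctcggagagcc
CXCL3: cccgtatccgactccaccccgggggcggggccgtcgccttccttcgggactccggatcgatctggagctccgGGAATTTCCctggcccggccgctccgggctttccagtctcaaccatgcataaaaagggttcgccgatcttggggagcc
CXCL8: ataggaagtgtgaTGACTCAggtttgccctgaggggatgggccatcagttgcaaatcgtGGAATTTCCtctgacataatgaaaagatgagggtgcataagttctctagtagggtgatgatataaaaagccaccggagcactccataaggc
IL6: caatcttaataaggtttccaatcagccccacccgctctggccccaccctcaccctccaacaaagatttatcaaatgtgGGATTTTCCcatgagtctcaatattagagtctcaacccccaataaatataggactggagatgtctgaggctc
IL24: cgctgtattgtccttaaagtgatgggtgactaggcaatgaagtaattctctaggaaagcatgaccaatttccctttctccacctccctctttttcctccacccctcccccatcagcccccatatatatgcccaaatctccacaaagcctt

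The stretches lie at chr4:73869243-73869392 for CXCL1, chr4:74099196-74099345 for CXCL2, chr4:74038690-74038839 for CXCL3, chr4:73740419-73740568 for CXCL8, chr7:22727050-22727199 for IL6 and chr1:206897293-206897442 for IL24. RefSeq promoters, from 250 bases before to 50 bases after the start, were at hand for 8 of the 10 genes, all but CCL2 and LIF. GGANTTTCC was found in 5 of the 8, with its first base at -78 from the start in CXCL1 and CXCL3, -77 in CXCL2, -91 in CXCL8 and -72 in IL6, and in 577 of 35116 promoters of that length, or 1.64%. TGANTCA was found at -137 in CXCL8 and at -96 in IL11, and in 7.71% of all promoters. The C/EBP motif TTGCNNAA was found in CXCL2, IL6 and IL1B and in 10.5% of all promoters. The CArG box, the motif bound by SRF, had no match in the 8 windows and was in 1.29% of all promoters. CXCL1 shared 82.5% of aligned promoter bases with CXCL3 and 71.9% with CXCL2, so those 3 matches are not separate observations. Of the 5 genes with GGANTTTCC, CXCL2 was below the filter in every comparison and CXCL3 in starvation. IL6 was below it in starvation and with MKL1 over control. Whether the motif bears on their changes was not tested. A match is a string of letters, and no binding was measured.

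CXCL1 was read at 0.594, 0.479 and 0.570 CPM in 0.1% FBS, against 2.35, 2.64 and 2.88 CPM in 10% FBS. The starved libraries were all below the fed ones. The log2 fold change was -2.25 ± 0.27 (SE), 4.74-fold lower (95% CI 3.17 to 7.10). No p-value is given for it, since CXCL1 passed the filter here only through the 10% FBS libraries, where it is high. In the overexpression set CXCL1 stood at 54.8, 58.7 and 58.5 CPM with caMKL1, 32.1, 36.2 and 32.7 CPM with MKL1 and 16.7, 19.2 and 18.8 CPM with the control vector. The 3 groups lay in separate bands. CXCL1 rose by a log2 fold change of 1.65 ± 0.067 with caMKL1 over control (edgeR adjusted p = 3.97e-11). Against control, MKL1 gave a log2 fold change of 0.90 ± 0.075 (edgeR adjusted p = 3.69e-06). Between caMKL1 and MKL1 the log2 fold change was 0.77 ± 0.063 (edgeR adjusted p = 1.76e-08).

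CXCL2 and CXCL3, near copies of CXCL1 that act on CXCR2, stayed at or below 1.40 CPM in all 15 libraries. CXCL2 had 2, 5 and 0 counts in 0.1% FBS, against 8, 3 and 4 counts in 10% FBS. With caMKL1 it had 7, 2 and 5 counts, with MKL1 8, 15 and 8 counts and with the control vector 13, 9 and 9 counts. It was below the filter in every comparison. CXCL3 had 9, 17 and 8 counts in 0.1% FBS, against 10, 3 and 9 counts in 10% FBS, with overlapping groups. In the overexpression set CXCL3 stood at 0.537, 0.918 and 0.371 CPM with caMKL1, 0.930, 1.35 and 1.40 CPM with MKL1 and 0.946, 1.16 and 0.963 CPM with the control vector. The caMKL1 libraries were all below both other groups, while MKL1 and control libraries overlapped.

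CXCL3 passed the filter against MKL1 only through MKL1 and control libraries, and against control only through control libraries. Its p-values in these 2 comparisons are thus a description. CXCL3 was lower with caMKL1 than with MKL1 by a log2 fold change of -0.999 ± 0.33, with an edgeR adjusted p of 0.0169, and this call depended on single libraries. The edgeR adjusted p was 0.0505 without MKL1 replicate 2, 0.0646 without MKL1 replicate 3, 0.0735 without caMKL1 replicate 1 and 0.0922 without caMKL1 replicate 3, and 0.0626 with DESeq2. Against the control vector the log2 fold change of CXCL3 with caMKL1 was -0.73 (95% CI -1.45 to -0.016), which missed the threshold with an edgeR adjusted p of 0.0691. Without caMKL1 replicate 2, the highest of its group, it was -1.13 with an edgeR adjusted p of 0.0219, within a range of 0.0219 to 0.247 over 13 alternatives. MKL1 against control gave 0.28 (95% CI -0.29 to 0.85; edgeR adjusted p = 0.44).

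CXCL1 thus made up a different part of the 3 near copies in each group. Its share of their summed counts was 47.6%, 26.7% and 50% in 0.1% FBS, from 21, 30 and 16 counts, against 69.0%, 88.0% and 77.6% in 10% FBS, from 58, 50 and 58 counts. The starved libraries lay below the fed ones, though the exact 95% intervals, 24.7% to 75.3% in 0.1% FBS replicate 3 and 55.5% to 80.5% in 10% FBS replicate 1, overlap. The share was 98.4%, 98.3% and 98.9% with caMKL1, 96.2%, 94.6% and 94.97% with MKL1 and 91.6%, 92.4% and 93.3% with the control vector, in bands that did not overlap. Exact 95% intervals of single libraries did overlap, 92.8% to 96.1% in MKL1 replicate 2 and 90.7% to 95.4% in control vector replicate 3. Those of MKL1 replicate 1, 94.6% to 97.4%, and caMKL1 replicate 2, 97.3% to 99.0%, also overlap. Of the 50-base windows of the longest transcripts, 5.73% in CXCL1, 9.24% in CXCL2 and 5.26% in CXCL3 also occur in another of the 3, and counting could have split those reads. Counted as 1 feature, the 3 genes fell by 1.26 on the log2 scale in 0.1% FBS (edgeR adjusted p = 0.000213), against 2.25 for CXCL1 alone. With overexpression the sum moved like CXCL1, by 1.56 with caMKL1 over control, 0.86 with MKL1 over control and 0.72 with caMKL1 over MKL1.

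**Figure D3:**
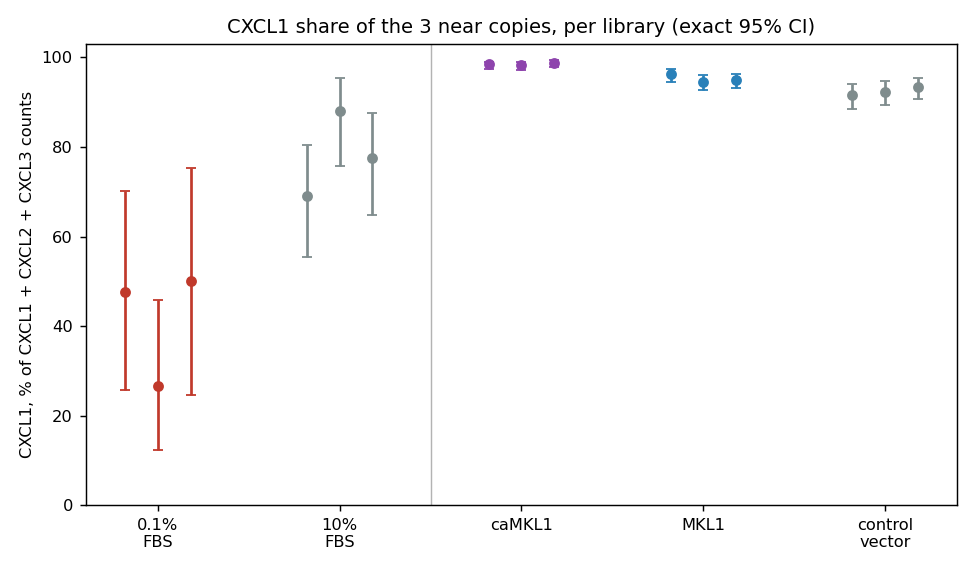
CXCL1 counts as a percent of the summed CXCL1, CXCL2 and CXCL3 counts (vertical axis) in each library of the 5 groups, with exact binomial 95% intervals that cover counting error only. The share is at most 50% in 0.1% FBS libraries, at least 69.0% in 10% FBS libraries and above 90% in all overexpression libraries.

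CXCL8, also called interleukin 8, did not follow CXCL1 under starvation. It stood at 6.00, 7.54 and 8.04 CPM in 0.1% FBS, against 6.64, 6.31 and 8.20 CPM in 10% FBS. The groups overlapped, and the log2 fold change of 0.027 had a 95% CI of -0.29 to 0.35 (edgeR adjusted p = 0.885). With caMKL1 it reached 104, 100.4 and 104 CPM, with MKL1 30.0, 34.4 and 29.5 CPM and with the control vector 5.81, 11.0 and 11.9 CPM. The 3 groups did not overlap, and control vector replicate 1 was the low one of its group. CXCL8 was 10.7-fold higher with caMKL1 than with the control vector (95% CI 8.67 to 13.2; edgeR adjusted p = 4.71e-11). With MKL1 it was 3.29-fold higher than control (95% CI 2.58 to 4.20; edgeR adjusted p = 1.3e-05). Between caMKL1 and MKL1 the fold was also 3.29 (95% CI 2.79 to 3.88; edgeR adjusted p = 8.69e-10).

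CCL2, the main attractant of monocytes and a ligand of CCR2, is at chr17:34255218-34257203 on the plus strand. It stood at 1.42, 1.26 and 0.926 CPM in 0.1% FBS, against 2.82, 2.34 and 2.50 CPM in 10% FBS. The starved libraries were all lower, and CCL2 fell by 1.07 ± 0.24 (SE) on the log2 scale, or 2.10-fold (95% CI 1.47 to 2.99; edgeR adjusted p = 0.0013). With caMKL1 it had 2, 2 and 0 counts, with MKL1 36, 28 and 17 counts and with the control vector 26, 20 and 32 counts. The caMKL1 libraries were nearly empty of it. Taken over the group, 4 counts with caMKL1 against 78 with the control vector make a 15.8-fold lower level, with an exact 95% interval of 5.93 to 59.4 that covers counting error only. Against the 81 counts of MKL1 the level was 15.96-fold lower, with an exact interval of 6.00 to 59.97. No p-value is given for either difference, since CCL2 was tested only because of the libraries where it is high. With MKL1 over control the log2 fold change was 0.043 with a 95% CI of -0.61 to 0.69 (edgeR adjusted p = 0.929), and the groups overlapped.

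IL6, the founding cytokine of its family and an inducer of the acute phase response, is at chr7:22725884-22732002 on the plus strand. It had 46, 34 and 39 counts with caMKL1, 0, 0 and 2 counts with MKL1 and 0, 1 and 0 counts with the control vector. No other group came near the caMKL1 libraries. The 119 counts with caMKL1 against 1 with the control vector make a ratio of 147, with an exact 95% interval of 25.9 to 5853, and against 2 with MKL1 a ratio of 75.5, with an interval of 20.5 to 631. No p-value is given for IL6, which was tested only because of the caMKL1 libraries. The fitted log2 fold changes, 6.70 and 5.98, rest on those 1 or 2 reads, and became 8.47 without control vector replicate 2 and 8.51 without MKL1 replicate 3. In 0.1% FBS no IL6 read was counted, which allows up to 0.0630 CPM (3 counts over the group), against 1, 0 and 0 counts in 10% FBS. IL6 shares 46 exonic bases with STEAP1B and 428 with AC073072.1, both on the opposite strand, and whether counting used the strand is not given in the sources used here.

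IL11 and LIF signal through the same coreceptor as IL6, IL11 through IL11RA and LIF through LIFR, and are known for roles in fibrosis and in stem cell culture. Both rose under starvation. IL11, at chr19:55364389-55370463 on the minus strand, stood at 29.7, 28.5 and 28.9 CPM in 0.1% FBS, against 14.6, 15.1 and 16.2 CPM in 10% FBS. The groups were well apart, with a 1.90-fold higher level in starved cells (95% CI 1.70 to 2.12; edgeR adjusted p = 8.73e-08). In the overexpression set IL11 was at 11.4, 10.4 and 11.0 CPM with caMKL1, 7.74, 8.34 and 8.74 CPM with MKL1 and 10.8, 10.6 and 10.9 CPM with the control vector. The MKL1 libraries were the low ones. IL11 fell by 0.37 ± 0.091 on the log2 scale with MKL1 against control (edgeR adjusted p = 0.00833), and the log2 fold change was 0.40 ± 0.088 with caMKL1 over MKL1 (edgeR adjusted p = 0.000986). Between caMKL1 and control the log2 fold change was 0.021 with a 95% CI of -0.16 to 0.20 (edgeR adjusted p = 0.846).

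LIF, at chr22:30240447-30246851 on the minus strand, stood at 88.3, 83.8 and 90.2 CPM in 0.1% FBS, against 46.0, 52.6 and 44.3 CPM in 10% FBS. The groups did not overlap, and LIF was 1.84-fold higher in starved cells (95% CI 1.67 to 2.02; edgeR adjusted p = 3.49e-08). With caMKL1 it was at 36.4, 38.1 and 39.7 CPM, with MKL1 at 36.5, 38.1 and 36.4 CPM and with the control vector at 40.7, 38.0 and 42.0 CPM. The 3 groups overlapped, and no overexpression comparison passed. The log2 fold change was -0.083 with caMKL1 over control (95% CI -0.22 to 0.049; edgeR adjusted p = 0.255) and -0.11 with MKL1 over control (95% CI -0.23 to 0.021; edgeR adjusted p = 0.188). Between caMKL1 and MKL1 it was 0.039 (95% CI -0.083 to 0.16; edgeR adjusted p = 0.592). LIF shares 92 exonic bases with LIF-AS1 and 175 with AC004264.1 on the opposite strand.

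IL24, a cytokine of the IL-10 family first found in differentiating melanoma cells and known to slow their growth when it is supplied, is at chr1:206897443-206904139 on the plus strand. It stood at 38.3, 37.9 and 40.0 CPM in 0.1% FBS, against 2.82, 3.12 and 3.14 CPM in 10% FBS. The starved libraries were all more than 10 times above the fed ones, with a fold of 12.8 (95% CI 11.1 to 14.7; edgeR adjusted p = 4.02e-13). In the overexpression set IL24 was at 134, 126 and 128 CPM with caMKL1, 49.7, 49.9 and 50.3 CPM with MKL1 and 13.9, 14.7 and 13.3 CPM with the control vector. The groups lay far apart and each was narrow. IL24 was 9.29-fold higher with caMKL1 than control (95% CI 8.53 to 10.1; edgeR adjusted p = 3.62e-15). With MKL1 it was 3.63-fold higher than control (95% CI 3.30 to 3.98; edgeR adjusted p = 3.38e-10). Between caMKL1 and MKL1 the fold was 2.59 (95% CI 2.42 to 2.77; edgeR adjusted p = 5.32e-14). Starvation and overexpression were run as separate sets with separate control cells, and no test compares their folds here.

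IL1B, the precursor of IL-1 beta that inflammasomes cut and release, is at chr2:112829751-112836903 on the minus strand. It had 38, 59 and 38 counts in 0.1% FBS, against 14, 46 and 63 counts in 10% FBS. The fed libraries spread widely and the groups overlapped, with a log2 fold change of 0.17 whose 95% CI ran from -0.62 to 0.97 (edgeR adjusted p = 0.703). With caMKL1 it had 6, 1 and 3 counts, with MKL1 9, 16 and 9 counts and with the control vector 3, 11 and 6 counts. The caMKL1 libraries were all below the MKL1 ones, at counts too low for the test. With no filter beyond 1 count the log2 fold change of IL1B with caMKL1 over MKL1 was -1.42, with an edgeR adjusted p of 0.0717.

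Levels can be compared between these genes only per length, and for that the deposited FPKM values, which are scaled by length and library, were used. Summed over the 10 genes, FPKM came to 88.0 ± 3.01 in 0.1% FBS, against 39.96 ± 2.52 in 10% FBS, and to 211 ± 3.65 with caMKL1, 109.5 ± 8.37 with MKL1 and 57.0 ± 5.36 with the control vector (SD, n = 3 each). LIF led in both serum groups, with 39.1 ± 3.15 FPKM in 0.1% FBS, against 18.4 ± 1.48 FPKM in 10% FBS. IL24 was next in 0.1% FBS at 24.1 ± 1.29 FPKM, while in 10% FBS it was at 1.87 ± 0.131 FPKM, sixth and within the spread of CXCL1 and IL1B. With caMKL1 the order was IL24 at 77.1 ± 3.50, CXCL8 at 62.1 ± 1.36, CXCL1 at 47.8 ± 1.74, LIF at 14.2 ± 0.854 and IL11 at 6.95 ± 0.413 FPKM, with no overlap between neighbours. With MKL1 it was IL24 at 36.9 ± 10.3, CXCL1 at 29.4 ± 1.73, CXCL8 at 19.9 ± 1.38 and LIF at 14.4 ± 1.19 FPKM, and IL24 and CXCL1 overlapped. With the control vector CXCL1 at 15.4 ± 1.24, LIF at 15.0 ± 2.52 and IL24 at 10.7 ± 3.51 FPKM overlapped one with the next. The FPKM of IL24 and of LIF was not in proportion to counts. For IL24, MKL1 replicate 1 was given 48.7 FPKM for 1175 counts and replicate 3 30.9 FPKM for 1220 counts. Control vector replicate 3 was given 14.7 FPKM for 318 counts of IL24 and replicate 1 8.26 FPKM for 308 counts. For LIF, control vector replicate 1 was given 17.5 FPKM for 904 counts and replicate 3 15.0 FPKM for 1004 counts. In 10% FBS, replicate 3 was given 18.6 FPKM for 691 counts of LIF and replicate 1 16.8 FPKM for 783 counts.

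**Figure D4:**
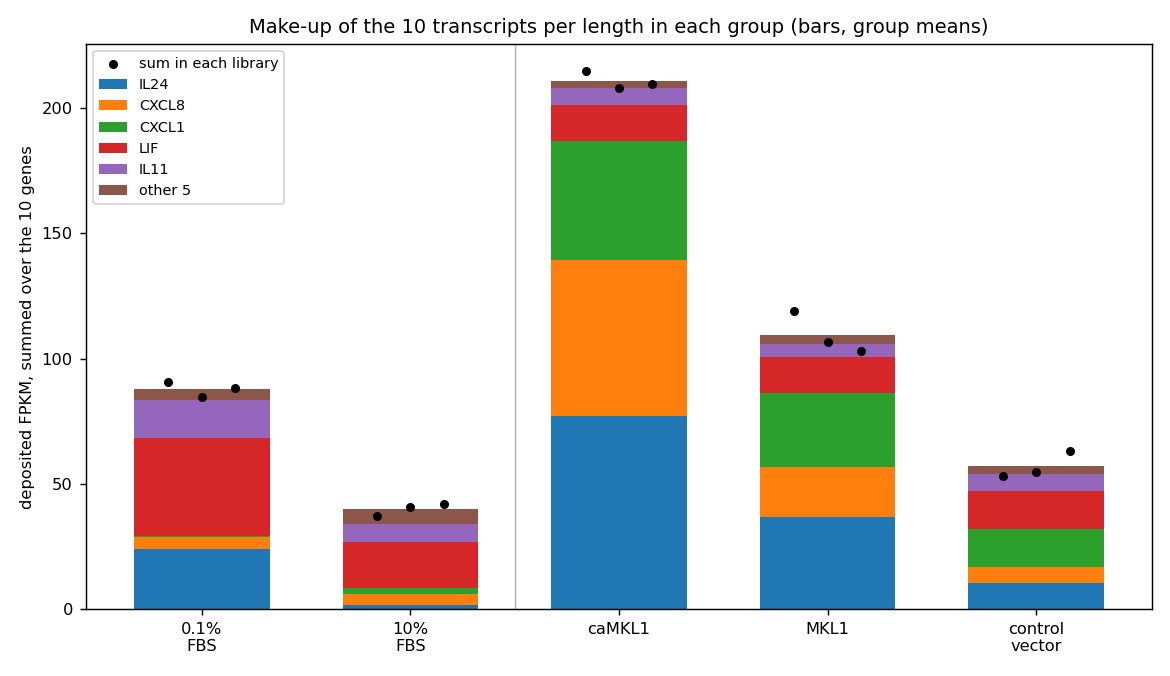
Deposited FPKM of the 10 genes stacked as group means (bars, vertical axis) for 0.1% FBS, 10% FBS, caMKL1, MKL1 and control vector cells, with the sum in each library as points. LIF is the largest block in both serum groups, and IL24, CXCL8 and CXCL1 make up most of the 211 FPKM in caMKL1 cells.

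Few relatives of these chemokines passed the filter on low counts. Of 13 other CXC chemokines 1 was tested in starvation and rose, CXCL16, a membrane-bound ligand of CXCR6, with a log2 fold change of 0.73 ± 0.11 (edgeR adjusted p = 5.25e-05). With caMKL1 over control CXCL16 rose by 0.54 ± 0.10 (edgeR adjusted p = 0.00027). The other gene tested there, CXCL11, a ligand of CXCR3, was tested only because of the caMKL1 libraries, where it is high, so no p-value is given. It had 116 counts over the caMKL1 libraries, 8 over the MKL1 libraries and 3 over the control libraries, a ratio of 47.8 of caMKL1 to control with an exact 95% interval of 15.9 to 235. CXCL16, the 1 gene tested with MKL1 over control, had a log2 fold change of 0.075 there (edgeR adjusted p = 0.625). Of 19 other CC and CX3C chemokines 1 of 4 tested rose in 0.1% FBS, CCL28, and with caMKL1 1 of 2 rose and 1 fell, CCL28 by 0.90 ± 0.10 and CX3CL1 by -0.91 ± 0.25 (edgeR adjusted p = 2.04e-06 and 0.00536). The 3 tested with MKL1 over control, CCL28, CX3CL1 and CCL20, had log2 fold changes of 0.12, -0.078 and 0.037 (edgeR adjusted p = 0.429, 0.799 and 0.958).

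Most receptors for chemokines were below the filter. CXCR1, for CXCL8, and CCR2, for CCL2, had no read in any of the 15 libraries, which allows up to 0.0437 CPM (MKL1) to 0.0630 CPM (0.1% FBS) over a group. CXCR2 had 26 counts over the 0.1% FBS libraries, against 4 counts over the 10% FBS libraries, and 6, 7 and 2 counts over the caMKL1, MKL1 and control vector libraries. Of 22 chemokine receptors 2 were tested in starvation, CCR10 and CXCR6, with log2 fold changes of -0.27 and -0.24 (edgeR adjusted p = 0.536 and 0.695). ACKR1, a decoy receptor that binds CXCL1, CXCL8 and CCL2, was the only one called with MKL1 over control, of 4 tested, and with caMKL1 over control, of 3 tested. It had 18 counts over the caMKL1 libraries, 29 over the MKL1 libraries and 63 over the control libraries, and was tested only because of the control libraries, so no p-value is given. For IL24, the receptor chain IL20RA had no read in any library, while IL22RA1 and IL20RB, which together form another receptor for it, were read in every group. IL22RA1 averaged 2.21 ± 0.115 CPM in 0.1% FBS and 5.89 ± 1.46 CPM in 10% FBS (SD, n = 3 each), and fell by 1.41 ± 0.20 (SE) on the log2 scale (edgeR adjusted p = 2.43e-05). Of 10 relatives and receptors of IL24 4 were tested in each comparison, and 1 rose and 2 fell in 0.1% FBS, 2 rose with caMKL1 and 1 rose with MKL1. The shares of all tested genes called are 62.6%, 63.6% and 31.2%. IL10, which is among those that rose in 0.1% FBS and with caMKL1, passed the filter in both only through the libraries where it is high. It had 164 counts over the 0.1% FBS libraries, against 21 over the 10% FBS libraries, and 67 over the caMKL1 libraries, against 33 over the control libraries.

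Receptors and signalling genes of the IL-6 family were mostly expressed, 13 of 14 being tested. In 0.1% FBS 8 rose and 1 fell, with a median log2 fold change of 0.21, against -0.0042 over all tested genes. OSMR, the oncostatin M receptor, rose by 0.73 ± 0.047 (edgeR adjusted p = 9.07e-09), LIFR by 0.56 ± 0.082 (edgeR adjusted p = 3.19e-05) and IL6R by 0.45 ± 0.056 (edgeR adjusted p = 6.5e-06). With caMKL1 over control 4 rose and 5 fell. OSMR rose by 0.69 ± 0.046 (edgeR adjusted p = 1.37e-08), while IL6R fell by 0.88 ± 0.074 (edgeR adjusted p = 1.3e-07) and LIFR by 0.86 ± 0.083 (edgeR adjusted p = 5.38e-07). With MKL1 over control none rose and 3 fell, OSMR among them with a log2 fold change of -0.16 ± 0.051 (edgeR adjusted p = 0.0318). The shares called were 69.2%, 69.2% and 23.1%, against 62.6%, 63.6% and 31.2% of all tested genes. SOCS3, the feedback inhibitor that STAT3 induces, was among the genes that fell in all 3, at 4.64 ± 0.753 CPM in 0.1% FBS and 9.00 ± 0.698 CPM in 10% FBS, and at 5.88 ± 0.829 CPM with caMKL1, 10.8 ± 0.575 CPM with MKL1 and 19.9 ± 1.51 CPM in control cells (SD, n = 3 each). Its log2 fold change was -0.95 in starvation, -1.75 with caMKL1 and -0.87 with MKL1 (edgeR adjusted p = 4.47e-05, 4.02e-09 and 1.33e-05). Of 8 other ligands of the family 4 were tested, and 1 fell in 0.1% FBS, 2 with caMKL1 and 3 with MKL1 over control, none rising.

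In the list of NF-kappaB subunits, inhibitors and targets, 20 of 22 genes were tested. In 0.1% FBS 11 rose and 5 fell, with caMKL1 over control 8 rose and 5 fell, and with MKL1 over control 6 rose and none fell. That is 80%, 65% and 30% of the list called, against 62.6%, 63.6% and 31.2% of all tested genes. TNFAIP3, which encodes the inhibitor A20, rose by 1.195 ± 0.085 in 0.1% FBS, 1.14 ± 0.090 with caMKL1 and 0.58 ± 0.10 with MKL1 (edgeR adjusted p = 2.35e-08, 7.05e-08 and 0.000874). BCL3 fell in 0.1% FBS, with a log2 fold change of -1.36 ± 0.15 (edgeR adjusted p = 1.82e-06). Its log2 fold change was 0.19 with caMKL1 and -0.16 with MKL1 (edgeR adjusted p = 0.0244 and 0.115). BIRC3, an inhibitor of cell death, averaged 16.7 ± 1.58 CPM with caMKL1, 3.65 ± 0.337 CPM with MKL1 and 1.33 ± 0.295 CPM in control cells (SD, n = 3 each), a log2 fold change of 3.62 ± 0.15 and 1.46 ± 0.20 (SE) over control (edgeR adjusted p = 3.7e-11 and 0.000222). The median log2 fold change of the list was 0.27 in 0.1% FBS, 0.033 with caMKL1 and -0.042 with MKL1, and that of all tested genes -0.0042, -0.020 and 0.011. NFKBIA, an inhibitor that NF-kappaB itself induces, gave a log2 fold change of 0.24 in 0.1% FBS, 0.29 with caMKL1 and -0.20 with MKL1, and of these 3 passed with caMKL1 (edgeR adjusted p = 0.0667, 0.00587 and 0.0816).

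Genes of the IL-1 axis split. Of 24 ligands, receptors and signalling genes other than IL1B 12 were tested in each comparison with a control, and 3 rose and 5 fell in 0.1% FBS, 7 rose and 3 fell with caMKL1 and 5 rose and 3 fell with MKL1. Those are 66.7%, 83.3% and 66.7% called, against 62.6%, 63.6% and 31.2% of all tested genes, and 2 of the 7 and 2 of the 5 passed the filter only through the libraries where they are high. IL1A, the other IL-1 agonist, averaged 3.14 ± 0.558 CPM in 0.1% FBS and 9.47 ± 0.647 CPM in 10% FBS (SD, n = 3 each), a log2 fold change of -1.58 ± 0.15 (SE; edgeR adjusted p = 4.76e-07). Against control IL1A rose by 0.66 ± 0.18 with caMKL1 and by 1.17 ± 0.16 with MKL1 (edgeR adjusted p = 0.00588 and 0.000181). IL1R1, the signalling receptor, is among them, with 155 counts over the caMKL1 libraries, 61 over the MKL1 libraries and 29 over the control libraries, and no p-value is given for it against control. IL1RAP and IRAK1 fell in all 3 comparisons. The log2 fold change of IL1RAP was -0.65 in 0.1% FBS, -1.07 with caMKL1 and -0.27 with MKL1 (edgeR adjusted p = 5.32e-07, 2.73e-09 and 0.00497). That of IRAK1 was -0.58, -0.55 and -0.36 (edgeR adjusted p = 1.81e-07, 2.44e-08 and 4.35e-05). Many cytokine messages carry AU-rich elements that set their decay. All 13 listed factors that destroy or steady such messages were tested, and 7 rose and 4 fell in 0.1% FBS, 4 rose and 6 fell with caMKL1 and 1 rose and 3 fell with MKL1. These are 84.6%, 76.9% and 30.8% of the list, against the same 62.6%, 63.6% and 31.2% of all tested genes, with list medians of 0.23, -0.10 and -0.064 in log2 fold change. ZFP36, which encodes the decay factor tristetraprolin, rose by 0.70 ± 0.11 in 0.1% FBS, 1.78 ± 0.060 with caMKL1 and 0.37 ± 0.072 with MKL1 (edgeR adjusted p = 4.91e-05, 4.24e-12 and 0.00209). ZFP36L1 and ZFP36L2, of the same list, fell with caMKL1, with log2 fold changes of -0.81 and -0.84 (edgeR adjusted p = 3.56e-09 and 2.3e-08). With MKL1 theirs were -0.088 and -0.28 (edgeR adjusted p = 0.19 and 0.00265), and in 0.1% FBS -0.091 and -0.18 (edgeR adjusted p = 0.129 and 0.00564).

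**Figure D5:**
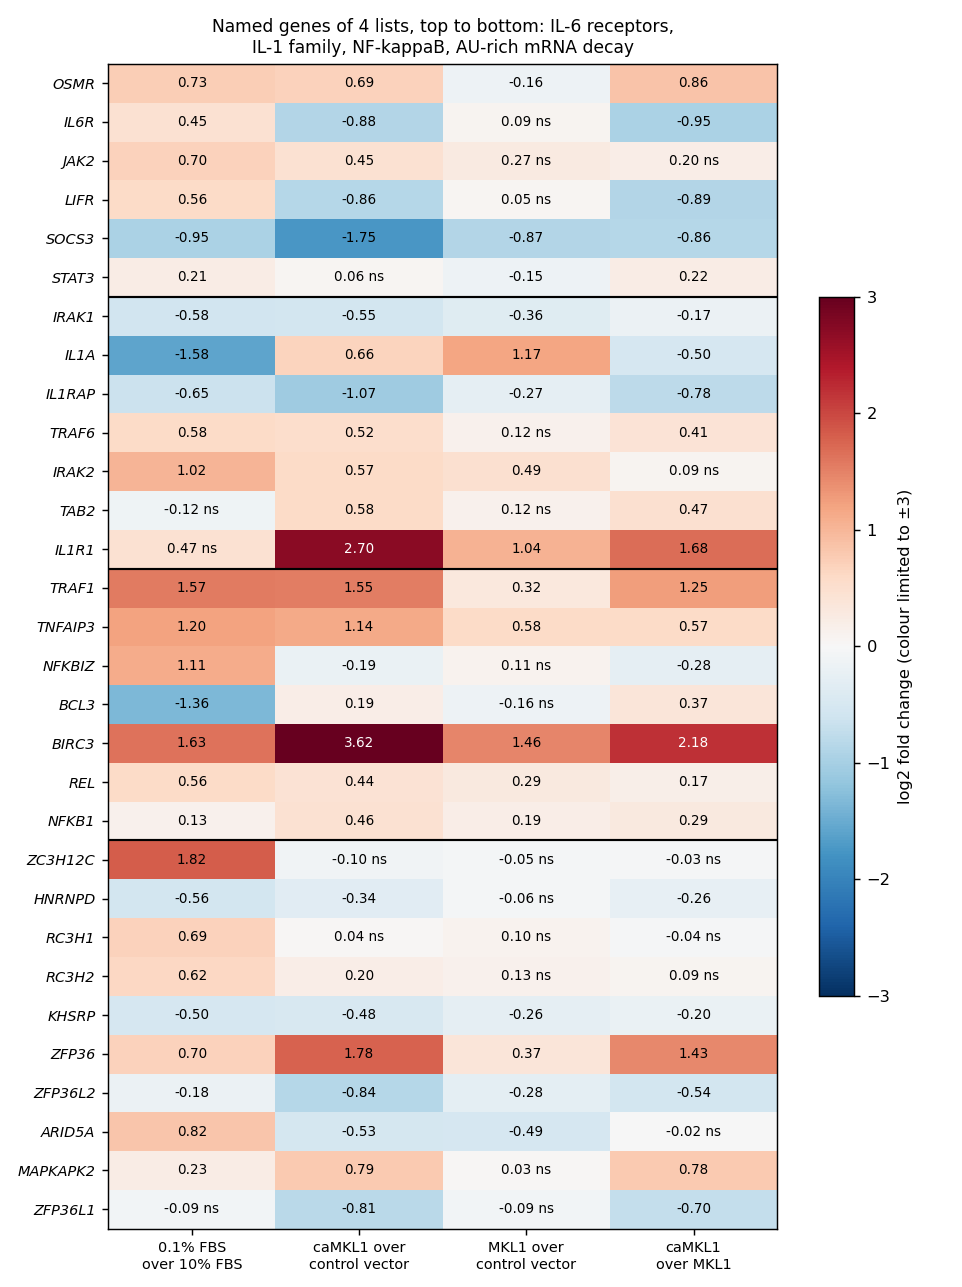
Log2 fold changes (colour and printed value; ns, adjusted p of 0.05 or more in edgeR) of named genes of 4 lists (rows) in 4 comparisons (columns). SOCS3 is below 0 in all 4 columns, BIRC3 and ZFP36 are above 0 in all 4, and IL6R and LIFR are above 0 in starvation and below 0 with caMKL1 over control.

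The genes whose pattern lay nearest to these were ranked by Pearson's r of log2 CPM over the 15 libraries, centred within each set, among 13321 genes. This is a description, since the libraries of a group share their treatment. IL24 was nearest to TNFAIP3 (r = 0.986), CXCL1 to CD200 and TRNP1 (both r = 0.984), and CXCL8 to TBC1D8B (r = 0.981) and COG5 (r = 0.980). CCL2 was nearest to CHCHD4 (r = 0.962) and HARS2 (r = 0.957), IL11 to SH3PXD2A and EBP (both r = 0.976), and LIF to PLA2G3 (r = 0.984) and TCAF2 (r = 0.979). The 10 genes themselves were left out of the ranking.

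Markers of other cells that can make these cytokines were summed in each library. Leukocyte markers summed to 57.2 to 61.1 CPM in 0.1% FBS and 50.9 to 56.9 CPM in 10% FBS, and to 68.7 to 75.2 CPM with caMKL1, 52.9 to 56.8 CPM with MKL1 and 30.5 to 37.4 CPM with the control vector. CD68 alone averaged 58.1 CPM with caMKL1, 41.4 CPM with MKL1 and 23.2 CPM with the control vector, while MS4A1, a B cell marker, had no read in any of the 5 groups. Fibroblast markers summed to 29.9 to 32.6 CPM with caMKL1, 24.2 to 30.6 CPM with MKL1 and 22.3 to 23.3 CPM with the control vector, and to 31.0 to 37.4 CPM in 0.1% FBS and 33.6 to 37.3 CPM in 10% FBS. Endothelial markers summed to between 1.64 and 14.3 CPM over all groups. Epithelial markers, mostly KRT18, summed to 173 to 185 CPM in 0.1% FBS and 303 to 342 CPM in 10% FBS, and to 167 to 175 CPM with caMKL1, 190 to 211 CPM with MKL1 and 222 to 228 CPM with the control vector. With caMKL1 over control the 2 tested epithelial markers moved apart, KRT18 with a log2 fold change of -0.59 and KRT14 with 1.79. The part of the marker sums in the results above was not tested. In the authors' deposited table the same genes of the 10 were called at an adjusted p under 0.05 as here, 5 in starvation, 5 with caMKL1 and 4 with MKL1, with 0 differing.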

How the data were processed

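Polyadenylated RNA of A375 cells was sequenced in 15 libraries, 3 in each of 5 groups. The authors deposited counts per gene and library, unscaled, which are whole numbers in the files. RSEM, Bowtie2 2.2.8, HISAT2 2.2.4, StringTie 1.3.1, DESeq2 and GRCh38 stand in the submitters' processing notes without a role, so the counts may be rounded estimates that share reads between near copies. Whether counting used the strand was not found in the sources used here. The authors also deposited FPKM, scaled per gene length and library, which was used only to compare levels between genes. The deposited tables hold the authors' log2 fold changes and p-values (an FDR column), per the file headers, for 3 pairs of groups, and these were used only to count matching calls. The labels' group and replicate number assigned each library, and no 2 of 105 pairs of libraries held identical values.

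CPM was computed with TMM factors within the 6 starvation or the 9 overexpression libraries. edgeR 4.0.16 (R 4.3.3) ran filterByExpr and a two-sided quasi-likelihood test on the whole table, with Benjamini-Hochberg adjustment over all tested genes and a threshold of 0.05. A gene is said to have passed the filter only through a group where its 3 libraries, and not all 3 of the other group, reached the filter's minimum CPM. Fits held the 6 libraries compared, and caMKL1 against MKL1 all 9. Ratios of low counts have exact binomial 95% intervals, and the limit for 0 reads is 3 counts over a group. Intervals and limits cover counting error only. The test was checked on simulated data. Promoters were aligned and searched with Biopython 1.88. Alternatives were RLE size factors, library totals, other filters, DESeq2 1.42.0, a replicate block, other libraries in the fit, the 3 near copies summed and each library left out in turn.

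The members and lists were chosen with earlier results of these data known. All members are named. From each list the genes named were among up to 4 with the smallest p in a comparison. Not all of those genes are given in the other comparisons too. In the text ATF3, JUND and IL22RA1 have a fold change for starvation alone, and FOSL2 and CEBPD for caMKL1 over control alone. The markers were handled likewise, as sums. The genes without a call in the lists, CASP1 and NFKBIA were named after their values were seen. For each member tested in all comparisons, the 2 genes with the highest r are given, except 1 that is not reported here, from log2 of CPM plus 0.5 among genes with a mean of at least 1 CPM in a group.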

Additional observations from a re-analysis of the deposited data

How the results depend on the processing

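Among the genes that passed the filter as reported, 413 values under the alternatives run kept their direction and side of the threshold, 12 changed sign, 5 lost the call and 1 gained it. None of the 12 had passed the test in edgeR. In 0.1% against 10% FBS, CXCL8 (0.027) was -0.016 and -0.049 without 10% FBS replicate 1 and 2, and -0.013 and -0.056 without 0.1% FBS replicate 2 and 3, over a range of -0.056 to 0.15, and IL1B (0.17) was -0.26 without 10% FBS replicate 1 and -0.026 without 0.1% FBS replicate 2, over a range of -0.26 to 0.66. With MKL1 over control, CCL2 (0.043) was -0.079 without control replicate 2, and -0.19 and -0.052 without MKL1 replicate 1 and 2, over a range of -0.19 to 0.32. With caMKL1 over control, IL11 (0.021) was -0.0037 with library totals and -0.011 without caMKL1 replicate 1, over a range of -0.011 to 0.052. With caMKL1 over MKL1, LIF (0.039) was -0.031 with library totals. The 5 lost calls were all CXCL3 with caMKL1 over MKL1, and the 1 gained was CXCL3 with caMKL1 over control, without caMKL1 replicate 2. Members lower with caMKL1 than control numbered 1, 0 where at least 1 CPM in 3 libraries was asked, which leaves CCL2 untested, and 1 to 2 with 1 library left out (2 without caMKL1 replicate 2). Members lower with caMKL1 than MKL1 numbered 2, 1 with DESeq2, and 1 to 3 with 1 library left out: 1 without MKL1 replicate 2 or 3 or caMKL1 replicate 3, and 3 without control replicate 1. IL1B, below the filter with all 9 libraries, passed the filter and was called lower with caMKL1 than MKL1 without control replicate 1 (log2 -1.39) and without caMKL1 replicate 1 (log2 -1.999), where CXCL3 lost its call. No p-value is given for IL1B there. It had 6, 1 and 3 counts with caMKL1 and passed only through libraries of the other groups. The cause of the other changes was not tested. The other counts of members were the same under each alternative run. With the replicate block the members higher and lower numbered 3 and 2 in starvation, 3 and 1 with MKL1, 4 and 1 with caMKL1 and 5 and 2 with caMKL1 over MKL1, as without it. Libraries with the same number correlated by -0.034 to 0.15 in their deviations from the group means, and not every library correlated best with its own number, so they share only a number. With library totals the median of all tested genes moved to -0.087 from -0.017 for caMKL1 over MKL1. Depth limits CXCL2, CXCL3, CCL2, IL6 and IL1B, which had few reads per library.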

Other observations

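AP-1 and C/EBP factors, which can bind the promoters of these cytokines, were tested for all 15 listed genes. In 0.1% FBS against 10% FBS 9 rose and 1 fell in edgeR's test, with a median log2 fold change of 0.47, against -0.0042 over all tested genes. That is 66.7% of the list called, against 62.6% of all tested genes. ATF3, a stress-induced factor, rose by 1.38 ± 0.16 (SE), JUND by 0.78 ± 0.088 and JUNB by 0.60 ± 0.071, while FOSL1, the AP-1 member also called FRA1, fell by 1.16 ± 0.070 (edgeR adjusted p = 3.42e-06, 2.61e-06, 4.65e-06 and 4.17e-09). With caMKL1 over control 4 rose and 8 fell, with a median of -0.19 against -0.020, and 80% were called, against 63.6% of all tested genes. FOSL2 rose by 1.39 ± 0.070 and JUN by 0.47 ± 0.072, while CEBPD fell by 1.15 ± 0.16 and CEBPB by 0.60 ± 0.097 (edgeR adjusted p = 5.04e-10, 5.42e-05, 1.84e-05 and 8.62e-05). With MKL1 over control none rose and 5 fell, with a median of -0.11 against 0.011, FOSL1 by 0.38 ± 0.064 and JUN by 0.37 ± 0.093 among them (edgeR adjusted p = 0.000731 and 0.00845). The share called was 33.3%, against 31.2% of all tested genes. Between caMKL1 and MKL1 5 were higher and 3 lower, 53.3% against 52.2%.

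CASP1, the protease that cuts IL-1 beta, had 4 counts over the 0.1% FBS libraries and 5 over the 10% FBS libraries, and 4, 7 and 6 counts over the caMKL1, MKL1 and control vector libraries. Of 10 listed genes 5 were tested in starvation, with 1 higher and 1 lower, 6 with caMKL1, with 2 higher and 1 lower, and 5 with MKL1, with 1 higher. The shares called were 40%, 50% and 20%, against 62.6%, 63.6% and 31.2% of all tested genes. AIM2, a sensor of cytoplasmic DNA, rose by 0.64 ± 0.10 and GSDMD, which forms the pore, fell by 0.59 ± 0.11 in 0.1% FBS (edgeR adjusted p = 8.67e-05 and 0.000224). With caMKL1 over control the inflammasome sensor NLRP1 rose by 0.44 ± 0.076 and AIM2 fell by 0.38 ± 0.086 (edgeR adjusted p = 0.000147 and 0.00157). NLRP3, another sensor, had 49 counts over the caMKL1 libraries and 24 over the control libraries, and passed the filter only through the caMKL1 libraries, so no p-value is given. With MKL1 over control NLRP1 rose by 0.20 ± 0.070 (edgeR adjusted p = 0.0391).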
